A study of Caenorhabditis elegans with 6 samples.

Results

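The left arm of chromosome IV of Caenorhabditis elegans is described here by the contact of its chromatin with EMR-1, the worm emerin, in early embryos. The arm was taken as all bins of 10 kb on chromosome IV from position 200001 to position 3900000 that held at least 60 reads over the 6 libraries. It comprises 367 of the 9914 bins of 10 kb that reached this minimum in the whole genome. The interval has room for 370 bins, and the 3 not listed start at 800001, 2180001 and 3700001. For detail the arm was also read as 1325 of 41117 bins of 2 kb, as 37 of 1004 bins of 100 kb, and as 515 of 18648 measured protein-coding genes. Positions are those of ce11, which shares its chromosome lengths with the WBcel235 gene table used for annotation.

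The study compared 3 libraries of worms carrying Dam::EMR-1, strain BN1470, with 3 libraries of worms carrying GFP::Dam, strain BN1465. Dam is a bacterial adenine methylase. Fused to a chromatin protein it marks the GATC sites around that protein, and fused to GFP it shows how readily each site can be reached. The genotype label of both groups is WT and the cell type label of both is EMS. Embryos were taken by bleaching pooled 1-day-old adults, 4000 per strain, grown on bacteria without Dam. Strain and construct differ together, so their effects cannot be told apart. What drives the fusions in EMS is not given in the sources used here, and DNA reads hold no transcript by which the cell type could be checked. Nothing in the labels says whether libraries of a group come from separate cultures. The p-values measure the spread between these samples, which may be technical.

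EMR-1 sits in the inner nuclear membrane, where emerin and the other LEM-domain proteins join the lamina to chromatin. In worm nuclei the arms of autosomes are rich in repeats and in silent, fast-evolving gene families and tend to lie at the nuclear envelope, whereas the centres hold more of the broadly expressed genes and lie further inside. EMS is the embryonic blastomere that divides into E, the founder of the intestine, and MS, a founder of pharynx and muscle.

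Unless stated otherwise, values are the authors' deposited log2 ratios between a Dam::EMR-1 and a GFP::Dam library of 1 replicate number. The headers leave the numerator unnamed. The tables are named for EMR-1, which was therefore read as the numerator. Reads per library were solved for from these ratios on the same reading, so if it is wrong all signs turn and the read values of the groups change places. Read levels are in CPM, the reads of a feature scaled to a common library total. The authors centred each column on the mean of the table, so 0 is the level of the average bin and not of equal reads. A bin or gene is called enriched or depleted where the 3 ratios lie above or below 0 at an adjusted p of 0.05 or less, by limma with Benjamini-Hochberg adjustment over the whole table.

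On this reading the IV left arm took a larger share of the reads in each Dam::EMR-1 library than in each GFP::Dam library. It is 3.69% of the genome and held 4.08, 4.23 and 3.83% of all reads in the 3 Dam::EMR-1 libraries, against 1.63, 1.60 and 1.87% in the 3 GFP::Dam libraries. The groups did not overlap. The means were 4.05 ± 0.206% in Dam::EMR-1 and 1.70 ± 0.149% in GFP::Dam (SD, n = 3 each), a ratio of 2.38 (p = 0.1, exact two-sided permutation test, the smallest p that 3 against 3 libraries allow). Dam::EMR-1 libraries therefore held more than the arm's share of the genome by length and GFP::Dam libraries less than it. The arm had 1.41 listed GATC sites per kb, against 1.73 over the genome, so its share of the sites is below its share of length.

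Over the 367 bins of 10 kb the mean ratio was 0.75, 1.25 and 0.56 in the 3 replicates, or 0.85 ± 0.36 (SD, n = 3). Replicate 2 was the highest. The median bin stood at 1.08, against 0.20 over all bins of the genome. Of the arm's bins, 137 were enriched, 37.3% against a genome-wide 28.4%, and 57 were depleted, 15.5% against a genome-wide 25.2% (limma, adjusted p of 0.05). The remaining 173 were not called. All 3 ratios were above 0 in 175 bins and below 0 in 95. The authors' deposited table, with its own adjusted p-values, gives 145 higher and 73 lower bins among 357 with a p-value in the arm, where its genome-wide shares are 31.7 and 29.6%. Without the centring, that is with libraries scaled by their total reads, ratios of the 10-kb table stood 0.60 higher on average, and 156 bins of the arm were enriched and 41 depleted. This shift applies to all bins of the genome, and genome-wide counts under it are not given here. Without replicate 3 the depleted bins numbered 32.

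The lean towards enrichment held at other bin sizes. At 2 kb, 358 bins (27.0%, genome-wide 19.2%) were enriched and 135 (10.2%, genome-wide 17.2%) depleted, and without 1 of the replicates these counts were 112 to 140 and 51 to 57. At 100 kb, 22 bins (59.5%, genome-wide 36.9%) were enriched and 4 (10.8%, genome-wide 38%) depleted. The 100-kb bin with the highest ratio, from 2500001 to 2600000, held 1724, 1612 and 1548 CPM in Dam::EMR-1 and 46.1, 32.9 and 57.4 in GFP::Dam. The bin beside it, from 2600001 to 2700000, had the lowest ratio, with 84.1, 193 and 196 CPM in Dam::EMR-1 and 1376, 1089 and 1330 in GFP::Dam. Neither pair of groups overlapped, and the ratios were 4.98 ± 0.38 and -3.31 ± 0.79 (SD, n = 3 each). The 100-kb bins with the highest and the lowest ratio of the arm thus lie side by side. Of the 73406 reads of the lower bin, 43175 were counted at 2 GATC sites near the tRNA gene Y69A2AR.t2, described below. Its low ratio therefore need not hold along the whole 100 kb.

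**Figure D1:**
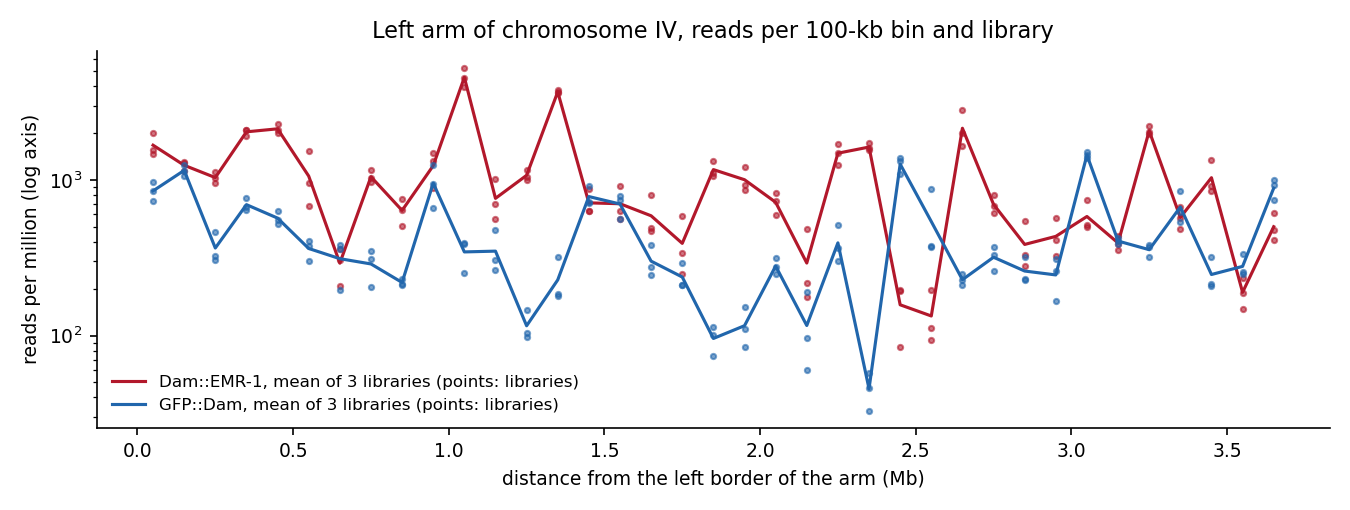
CPM in each of the 37 bins of 100 kb (log axis) against distance from the left border of the arm (Mb). Points are libraries and lines join the means of 3, in red for Dam::EMR-1 and blue for GFP::Dam; the Dam::EMR-1 line runs above the GFP::Dam line over most of the arm and the lines cross sharply beside the bin with the highest ratio.

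The arm was a mosaic rather than an even block. Ratios of its 10-kb bins ran between -8.75 and 8.98, with quartiles at -1.23 and 3.21. The SD between bins was 3.24, against 3.46 over all bins of the genome, so this variation is not particular to the arm. Replicates ranked the bins alike, with Pearson's r of 0.74 to 0.81 between replicate ratios over the 367 bins. The 2 fusions were strongest in different bins. Over the 340 bins whose reads could be recovered, log2 CPM correlated at 0.81 to 0.84 between Dam::EMR-1 libraries and at 0.83 to 0.88 between GFP::Dam libraries, but at 0.08 to 0.20 between libraries of different groups. These bins share libraries and GATC density and are not independent.

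The 10-kb bin with the highest ratio, from 1220001 to 1230000, had 7832, 1076 and 6355 reads in Dam::EMR-1 and 3, 0 and 23 in GFP::Dam. Its ratio was 8.98 ± 1.22 (SD, n = 3). Over the enriched bins the median level was 153, 160 and 152 CPM in the Dam::EMR-1 libraries and 7.33, 5.25 and 9.59 CPM in the GFP::Dam libraries. Over the depleted bins it was 4.78, 15.0 and 10.4 CPM in the Dam::EMR-1 libraries and 89.4, 78.6 and 103 CPM in the GFP::Dam libraries. Both kinds of bin were rich in one fusion and poor in the other, which is how the calls chose them. Bins that were not called had fewer reads, with medians of 20.9, 32.8 and 22.5 CPM in Dam::EMR-1 and 11.01, 12.3 and 18.8 in GFP::Dam.

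**Figure D2:**
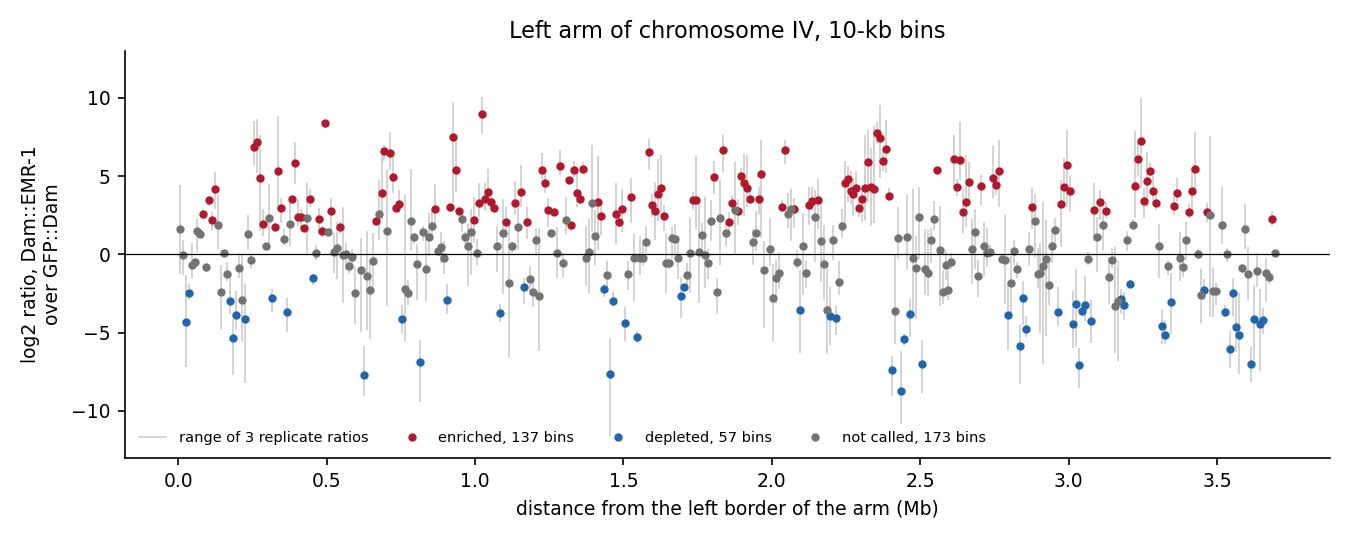
Log2 ratio of Dam::EMR-1 over GFP::Dam in the 367 bins of 10 kb against distance from the left border of the arm (Mb). Points are means of 3 replicates and grey bars their range; 137 enriched bins (red) and 57 depleted bins (blue) alternate along the whole arm, and depleted bins gather towards its right end.

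Along the arm the ratio was low at both ends and high between them. The first window, up to 500000, averaged 0.28 ± 0.35 (SD, n = 3). The 5 windows of 500 kb between 500001 and 3000000 averaged 1.23, 1.45, 1.02, 1.75 and 1.29. The window up to 3500000 averaged 0.20 ± 0.21, and the bins beyond it up to the border averaged -1.03 ± 0.43, with 7 of 39 bins enriched and 13 depleted. In that last stretch the mean log2(CPM + 1) of the bins was 4.59 ± 0.27 in Dam::EMR-1 and 4.87 ± 0.27 in GFP::Dam. In the window from 2000001 to 2500000 it was 5.30 ± 0.29 in Dam::EMR-1 and 3.05 ± 0.35 in GFP::Dam, so the GFP::Dam level differed more between these stretches than the Dam::EMR-1 level. Without the part beyond 3000000 the mean ratio of the arm was 1.23.

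The border positions were set by the rule and not by the data. Just inside the left border the bin from 200001 had a ratio of 1.63 ± 2.82, and just outside it the bin from 190001 had -3.24 ± 1.09. Just inside the right border the bin from 3890001 had 0.07 ± 0.22, and the next bin outside had 2.47 ± 0.31 (SD, n = 3 each). No listed bin of the arm fell below the read minimum, and the lowest bin inside it held 61 reads.

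Compared with the centre of its own chromosome, up to position 13000000, the left arm stood higher by 1.35 ± 0.42 in mean ratio (SD, n = 3). The centre had a mean ratio of -0.50 ± 0.07. In read level, the arm minus the centre was -0.12, 0.41 and -0.07 on the log2(CPM + 1) scale in Dam::EMR-1 libraries and -1.22, -1.23 and -1.10 in GFP::Dam libraries. The groups did not overlap (p = 0.1, exact two-sided permutation test). Between arm and centre, then, Dam::EMR-1 libraries were nearly level per bin and GFP::Dam libraries were lower in the arm. These levels are not corrected for listed GATC sites, of which the arm had 14.2 per bin and the centre 18.6.

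The right arm of chromosome IV, beyond 13000000, holds the large clusters of piRNA genes and had a mean ratio of 2.10 ± 0.25. The left arm stood lower than it by 1.25, the difference being -1.25 ± 0.27. The level of the left minus the right arm was -0.11 ± 0.24 in Dam::EMR-1 and 0.71 ± 0.02 in GFP::Dam (SD, n = 3 each; exact two-sided permutation test, p = 0.1). The left arm exceeded the right in GFP::Dam reads in all 3 libraries, and in Dam::EMR-1 reads in 1 of 3.

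Against the same interval on the other autosomes the IV left arm was among the lower ones. Its mean ratio of 0.85 ± 0.36 compares with 0.55 ± 0.36 on I, 0.96 ± 0.24 on III, 1.57 ± 0.17 on II and 2.06 ± 0.14 on V. The difference from the mean of these 4 arms was -0.43 ± 0.15, and the level difference was -0.45 ± 0.08 in Dam::EMR-1 and -0.05 ± 0.03 in GFP::Dam (exact two-sided permutation test, p = 0.1). Levels are not corrected for listed GATC sites. Sites per bin numbered 14.2 in the IV left arm and 15.1, 17.9, 14.5 and 18.2 on I, II, III and V. Per chromosome, the mean ratio of the IV arm differed by 0.30 ± 0.11 from I, by -0.72 ± 0.19 from II, by -0.11 ± 0.17 from III and by -1.21 ± 0.25 from V (SD, n = 3 each). The level difference between the arms, set between Dam::EMR-1 and GFP::Dam libraries, gave an exact two-sided permutation p of 0.1 for I, II and V and of 0.5 for III, where the replicates lay on both sides of 0. Over the 7 comparisons between regions the adjusted p of those at 0.1 was 0.117, so none passes 0.05 in this design. With the arm ended at 3000000, the difference from the right arm of IV was -0.87 and that from the other left arms -0.20.

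**Figure D3:**
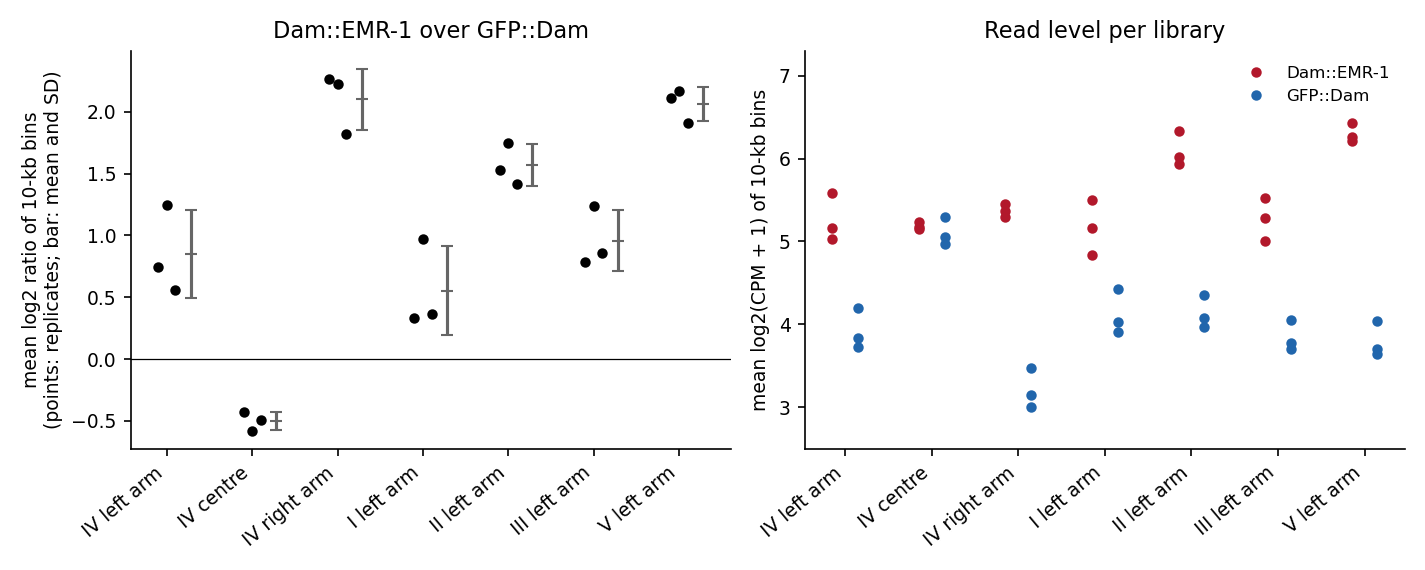
Left, mean log2 ratio of 10-kb bins per replicate in 7 regions, with mean and SD beside the points; right, mean log2(CPM + 1) of 10-kb bins per library, Dam::EMR-1 in red and GFP::Dam in blue. The IV left arm averages 0.85, above the IV centre at -0.50 and below the IV right arm at 2.10. Its Dam::EMR-1 level is close to that of the centre while its GFP::Dam level is lower. Levels are not corrected for GATC sites per bin.

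Neighbouring bins called alike were joined into runs of at least 2 bins. Enriched runs numbered 27 and covered 1110 kb, 30.0% of the arm against 22.3% of the genome. Depleted runs numbered 12 and covered 310 kb, 8.38% of the arm against 17.8% of the genome. The median run was 30 kb for enriched and 20 kb for depleted runs, in the arm and over the genome alike. Another 26 enriched and 26 depleted bins stood alone. Of 118 neighbouring pairs with both bins called, 15 had opposite calls (12.7%), against 9.92% over all such pairs of the genome.

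The longest enriched run spanned 160 kb, from 2440001 to 2600000, with a mean ratio of 4.89 ± 0.71 (SD, n = 3). Its recovered reads came to 3036, 3076 and 2659 CPM in Dam::EMR-1 and to 121, 95.0 and 129 in GFP::Dam. Of its 19 measured genes 14 were enriched and 0 depleted by limma. They include the cadherin gene cdh-10 (3.98 ± 0.22), the Hedgehog-related gene grd-16 (6.08 ± 0.99), the nuclear hormone receptor gene nhr-242 (5.73 ± 0.46) and the invertebrate lysozyme gene ilys-3 (3.75 ± 0.52). Genes in a run draw on the same reads as its bins. Counts of called genes, here and in the runs below, therefore follow largely from how the runs were chosen. Over the whole arm 41.0% of measured genes were enriched and 15.1% depleted.

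The next, of 80 kb from 3420001 to 3500000, averaged 4.79 ± 0.59, and 21 of its 23 genes were enriched. It holds most of the arm's srz chemoreceptor genes and 3 Hedgehog-related genes, grd-13 (4.90 ± 0.09), grd-3 (5.13 ± 0.34) and grd-10 (6.75 ± 1.19). Its levels were 2086, 1836 and 1884 CPM in Dam::EMR-1 and 53.3, 40.3 and 76.9 in GFP::Dam.

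A further 4 runs tied at 60 kb. The run from 1210001 averaged 4.35 ± 0.63 and carries clec-165 to clec-170, with 15 of 16 genes enriched. The run from 1510001 averaged 4.16 ± 0.28 and carries clec-172, the collagen gene col-107 and hpo-6, with 13 of 14 genes enriched. The run from 2810001 averaged 4.50 ± 0.71 and carries clec-80, clec-82 to clec-85, pudl-1 and pudl-2, with 13 of 16 genes enriched. The run from 1780001 carries cmk-1 (a calcium/calmodulin-dependent kinase gene), snn-1 (synapsin), ccm-2, the neuropeptide receptor gene frpr-19 and the collagen gene col-109, and averaged 3.83 ± 0.44 with 5 of 7 genes enriched. In all 6 of these runs every Dam::EMR-1 library had a higher CPM than every GFP::Dam library. The runs were joined from bins called enriched on these same reads, so this is no separate evidence.

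Depleted runs were shorter. The longest, 50 kb from 3210001 to 3260000 at -4.31 ± 1.20, is taken up mostly by phkb-1, which codes for the regulatory beta subunit of phosphorylase kinase. The run of 40 kb from 3740001 averaged -4.60 ± 1.22 and holds siah-1, a ubiquitin ligase gene, and vab-2, an ephrin gene. The run of 30 kb from 370001 averaged -4.07 ± 0.60 and holds 10 measured genes, 8 of them depleted, including spl-1 (sphingosine phosphate lyase), rps-24 (a ribosomal protein of the small subunit), ssna-1, uncp-18, nog-1 and ears-2. The run of 30 kb from 3030001 averaged -4.47 ± 1.33 and holds eel-1, a large ubiquitin ligase gene. Of the runs of 20 kb, the first along the arm starts at 220001, averaged -3.40 ± 1.65 and holds gtf-2H1 and fnta-1.

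The largest step between neighbouring called bins in the arm lay at the right end of its longest enriched run. The last bin inside, up to 2600000, had 12447, 6797 and 5000 reads in Dam::EMR-1 and 353, 340 and 342 in GFP::Dam, a ratio of 3.74 ± 0.45. The first bin outside had 0, 0 and 1 reads in Dam::EMR-1 and 49, 298 and 141 in GFP::Dam, a ratio of -7.37 ± 1.45. The step was 11.1 on the log2 scale. The second bin rests on 489 reads in all and 1 Dam::EMR-1 read, so the size of its ratio depends on the 1 read that is added to each count.

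Averaged over the 2-kb bins of each side, the replicate means lay closer together inside the border than outside it. In single bins the replicates could lie far apart on either side. Over 60 kb inside the border, 18 of 23 bins were enriched and the mean ratio was 5.44 ± 0.66. Over 60 kb outside it, 4 of 17 bins were depleted, 6 lay above 0 and the mean was -2.09 ± 1.75. The last 2 bins of 2 kb before the border were not called.

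**Figure D4:**
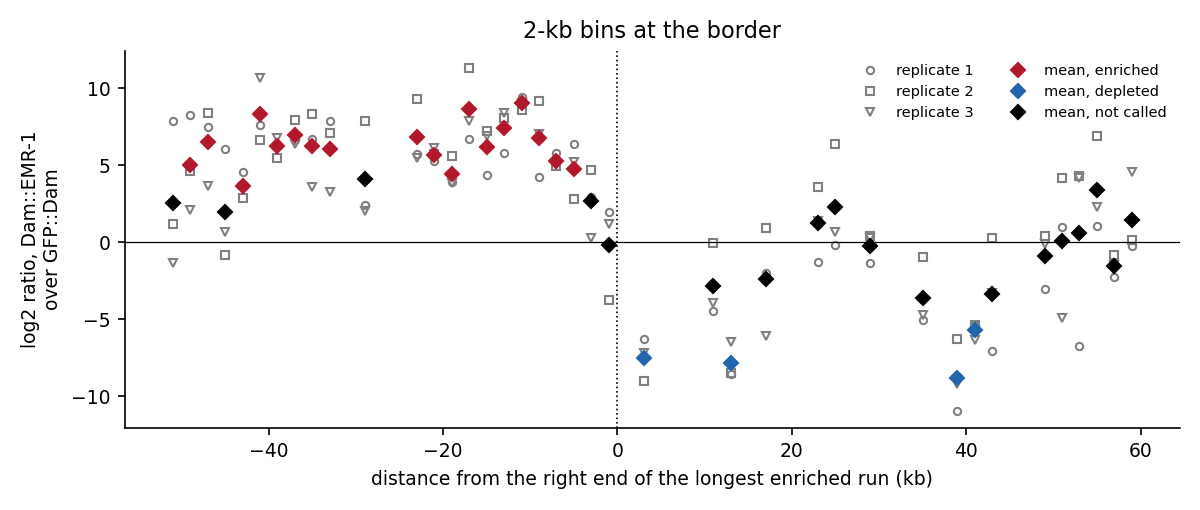
Log2 ratio of Dam::EMR-1 over GFP::Dam in 2-kb bins within 60 kb of the right end of the longest enriched run (distance in kb, negative inside the run). Grey symbols are the 3 replicates and diamonds their mean, coloured by call; 18 of 23 bins inside are enriched and 4 of 17 outside are depleted. Genome-wide, 19.2% of 2-kb bins are enriched and 17.2% depleted, and the inside was chosen as an enriched run.

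The lowest 10-kb bin of the arm, from 2630001 to 2640000, starts 30 kb beyond this border. Of the 3 bins between, 1 was depleted and 2 were not called. The lowest bin had 15, 281 and 33 reads in Dam::EMR-1 and 15991, 11536 and 15395 in GFP::Dam, a ratio of -8.75 ± 2.37. Of its reads, 99.9% were counted at 2 of its 3 listed GATC sites, both within 500 bp of the tRNA gene Y69A2AR.t2 (2639809 to 2639880). That gene lies inside the body of mdf-2, which codes for the worm Mad2 spindle checkpoint protein, so the value of mdf-2 (-6.19 ± 1.27) draws 74.5% of its reads from the same sites. At its 2 other sites mdf-2 had a mean ratio of -3.85 ± 2.84, with all 3 replicates below 0.

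Strong depletion at a few sites near a small RNA gene recurred elsewhere in the arm. These genes were picked out after their values had been seen and carry no test. The microRNA gene mir-58.1 (3233254 to 3233350), an abundant microRNA of the bantam family, lies within phkb-1. Its 3 GATC sites had together 6, 5 and 10 reads in Dam::EMR-1 and 6491, 7289 and 11148 in GFP::Dam. The ratio was -10.11, -10.37 and -10.28 in the 3 replicates. These sites hold 58.5% of all reads of phkb-1, but its other 40 sites also averaged -3.57 ± 0.42 (SD, n = 3). The tRNA gene M57.t1 (3524819 to 3524891), inside unc-33, had 14, 3 and 8 reads in Dam::EMR-1 and 4103, 4181 and 7130 in GFP::Dam at 2 sites. The other 15 sites of unc-33 averaged -3.86 ± 0.88. In each of these 3 host genes the mean ratio was lowest at the small RNA gene and below 0 outside it. For mdf-2 the outside value rests on 2 sites, with -0.64, -4.87 and -6.05 in the 3 replicates.

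As classes, small RNA genes of the arm had medians near or above 0. The 13 measured tRNA genes had a median ratio of 0.29, against -1.78 over 419 tRNA genes of the genome, with all 3 replicates above 0 in 3 and below 0 in 6. The 10 measured microRNA genes had a median of 0.08, against -2.10 over 180 in the genome. The 10 measured piRNA genes stood at a median of 2.31, against 2.89. The 40 measured pseudogenes had a median of 3.19, against 2.72 over 1701 in the genome, and all 3 replicates were above 0 in 27 of the 40. Short genes with few sites share reads with the genes around them, and these medians carry no test.

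Reads were also spread unevenly within depleted bins. The most-read GATC site held a median of 34.7% of the reads of a depleted bin, 28.9% in bins not called and 23.3% in enriched bins. It held more than 50% in 10 of 57 depleted and 7 of 137 enriched bins. Enriched bins had more listed GATC sites, 17.4 per bin against 13.3 in depleted and 12.03 in bins not called. Over the 367 bins the ratio correlated with the number of sites at r = 0.23, and the difference from the centre was 1.27 ± 0.32 after a linear trend on site number was removed. Annotated genes covered 61.0% of enriched, 60.7% of depleted and 69.7% of other bins.

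Of the 515 measured protein-coding genes of the arm, of 569 annotated, 211 were enriched (41.0%, genome-wide 30.2%) and 78 depleted (15.1%, genome-wide 27.2%) by limma on the mean of each gene's GATC sites. The median gene stood at 1.47, against 0.31 over all genes. By edgeR's quasi-likelihood test on recovered reads, fitted for all genes without a term for replicate number, 149 genes were enriched and 49 depleted. Genome-wide shares in edgeR are not given here. Sites up to 500 bp outside a gene's body counted towards it, so close neighbours share sites. How reads that map to several places were treated is not given in the sources used here, so members of the clec, srz and fbxc families with near-identical copies are uncertain.

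C-type lectin genes, which code for carbohydrate-binding proteins with known roles in defence against microbes, were enriched nearly throughout. Of 15 in the arm, all measured, 14 were enriched and 0 were depleted, and their median was 4.61. Over the genome 161 of 231 were enriched and 16 were depleted, and the median was 3.10. The exception in the arm was clec-173, at -0.38 ± 0.27, which was not called. In clec-166 the levels were 1068, 1067 and 900 CPM in Dam::EMR-1 and 120, 95.3 and 148 in GFP::Dam. In clec-167 they were 832, 406 and 295 in Dam::EMR-1 and 8.67, 3.56 and 17.6 in GFP::Dam. Neither gene's groups overlapped, and the ratios were 4.61 ± 0.84 and 6.08 ± 1.20 with limma adjusted p-values of 4.0e-05 and 2.6e-05 (SD, n = 3). In edgeR the log2 ratio of clec-166 was 2.36 (adjusted p = 0.0077), and from its gene body alone it was 3.39 in limma. The other C-type lectin genes among the highest of the arm were clec-172 (6.68 ± 0.97, on 3 sites), clec-83 (6.11 ± 1.29) and clec-168 (6.001 ± 1.39).

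Chemoreceptor genes, which code for the receptors of sensory neurons, were enriched in 13 of 18 cases and depleted in 0, with a median of 4.07. Over the genome 848 of 1272 were enriched and 35 were depleted, and the median was 3.04. The srz subfamily supplied 10 of the 18, all between 3428900 and 3506115, and 8 of those were enriched. In srz-32 the levels were 172, 97.3 and 177 CPM in Dam::EMR-1 and 0.513, 3.13 and 1.14 in GFP::Dam, and the ratio was 5.93 ± 0.90 (limma, adjusted p = 6.0e-05). The gene at the right edge of the cluster, srz-83, was at 0.51 ± 1.32 and was not called.

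Cuticle genes were enriched in 6 of 10 cases and depleted in 0, with a median of 3.58. Over the genome 60 of 179 were enriched and 24 were depleted, and the median was 1.03. Collagen genes of the col series supplied all 6, led by col-107 (5.63 ± 1.32) and col-102 (5.53 ± 0.78), while the cuticle collagen gene dpy-9 lay at -0.65 ± 1.68 with replicates on both sides of 0. Nuclear hormone receptor genes were enriched in 6 of 10 and depleted in 1, with a median of 2.85, against 116 enriched and 43 depleted of 266 and a median of 1.54 over the genome. Those named were nhr-242 (5.73), nhr-76 (3.61 ± 1.75) and, on the depleted side, nhr-41 (-2.38 ± 0.46). The calls of nhr-76 and nhr-41 were lost in edgeR, with adjusted p-values of 0.082 and 0.086, and that of nhr-41 also in limma without replicate 1 (adjusted p = 0.069).

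Only 5 of the 12 F-box genes of the arm could be measured, because 7 of the 10 fbxc genes packed between 891239 and 911196 had no value. Of the 5, fbxc-8 and fbxc-9 were enriched by limma on 1 GATC site each, and edgeR called neither (adjusted p of 0.088 and 0.064). Without replicate 1 the limma call of fbxc-9 was lost too (adjusted p = 0.19). Over the genome 127 of 304 F-box genes were enriched by limma, a share close to 2 of 5. Genes for signalling between neurons were few. Both neuropeptide receptor genes, npr-37 (3.88 ± 0.43) and frpr-19 (3.37 ± 1.64), and 3 of 4 measured channel and transmitter receptor genes were enriched, among them lgc-30 (3.71 ± 0.20). Over the genome 53 of 93 neuropeptide receptor genes and 74 of 168 channel and transmitter receptor genes were enriched.

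The cytosolic ribosomal protein genes went the other way. All 3 in the arm, rps-24 (-3.80 ± 1.35), rpl-15 (-4.22 ± 0.58) and rps-28 (-3.84 ± 1.10, on 2 sites), were depleted, as were 68 of 76 over the genome. Genes named for lineage, lethal, male or cell death phenotypes were enriched in 0 and depleted in 0 of 4 cases by limma in the arm, where 57 of 102 were depleted over the genome, with medians of 0.92 in the arm and -2.39 over the genome. No test of that difference was made.

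**Figure D5:**
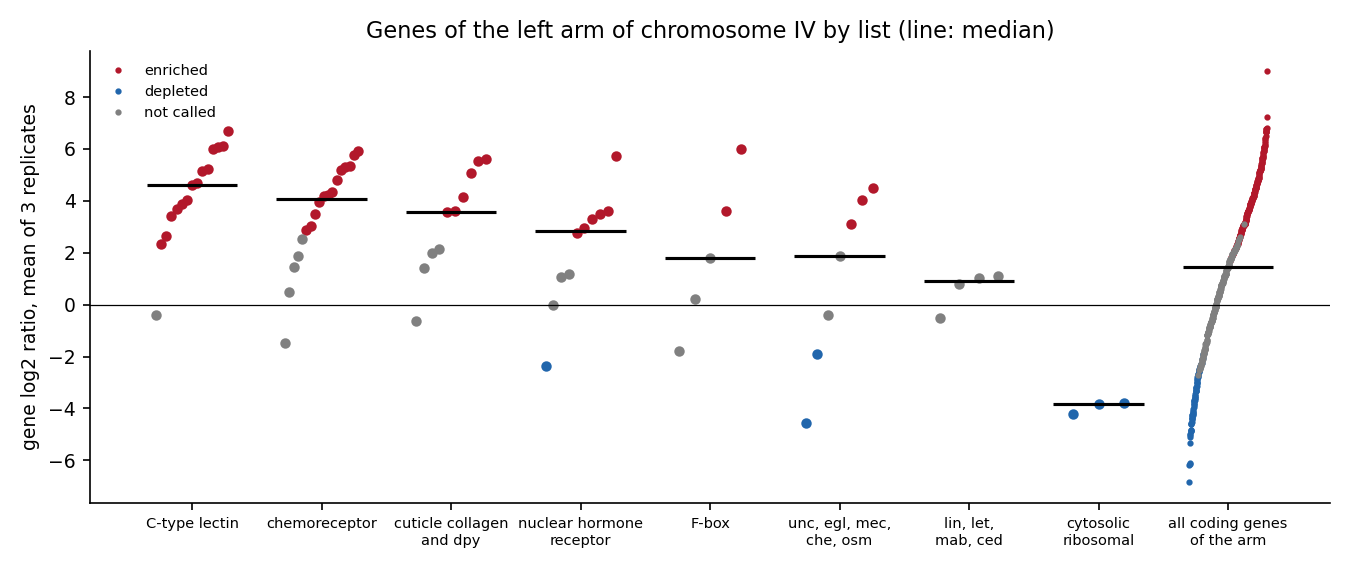
Gene log2 ratios (mean of 3 replicates) for genes of the arm by list, and for all 515 measured coding genes at the right; points are genes coloured by call and lines are medians. The C-type lectin genes have a median of 4.61 with 14 of 15 enriched, and the 3 ribosomal protein genes are all depleted.

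The gene with the highest ratio was xbx-4, at 8.99 ± 0.74 on 2 sites (limma, adjusted p = 1.3e-05). It belongs to the genes found by the X-box motif of ciliary genes, and its levels were 130, 45.2 and 88.4 CPM in Dam::EMR-1 and 0.057, 0 and 0 in GFP::Dam. With 1 GFP::Dam read in all, the size of this ratio depends on the 1 read added to each count. In the same stretch che-6, a gene of ciliated sensory neurons, stood at 4.05 ± 1.42. Among genes with a gene name and more reads than the median gene, the next were prmt-4 (6.82 ± 0.08), with 6.81, 6.74 and 6.90 in the 3 replicates, then pudl-1 (6.78 ± 1.15), grd-10 (6.75 ± 1.19), clec-172 (6.68 ± 0.97) and perm-2 (6.49 ± 0.60), an eggshell permeability gene. The call of perm-2 was lost in edgeR without a replicate term (adjusted p = 0.12) and kept with one (0.048). Levels of prmt-4 were 83.6, 102 and 62.6 CPM in Dam::EMR-1 and 0.057, 0.184 and 0.057 in GFP::Dam, so its value rests on almost no GFP::Dam reads.

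Among the depleted genes with a gene name and more reads than the median gene, the lowest after mdf-2 was pbs-1, a beta subunit of the proteasome, with 3.26, 0.636 and 4.95 CPM in Dam::EMR-1 and 260, 277 and 164 in GFP::Dam, a ratio of -5.35 ± 0.87 (limma, adjusted p = 7.4e-05). The groups were far apart. It was followed by mai-2, which codes for an inhibitor of the mitochondrial ATP synthase (-5.02 ± 2.08), uncp-18 (-4.98 ± 0.23) and ssna-1 (-4.85 ± 1.14). The genes phkb-1 (-4.03 ± 0.40), siah-1 (-3.32 ± 1.10) and eel-1 (-3.20 ± 0.22) of the depleted runs were also among the lowest 12. The set also held genes of the nervous system, namely unc-33, which codes for a CRMP protein of axons (-4.54 ± 0.77), zag-1, a zinc-finger homeobox gene of neurons (-3.34 ± 0.44), and the ephrin gene efn-4 (-3.17 ± 0.16). The calls of spl-1 (-4.08 ± 1.03) and zag-1 were lost in edgeR (adjusted p = 0.069 and 0.079), as was that of ssna-1 (0.051), which was kept with a replicate term (0.034).

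Well-known genes of the arm, from a hand-picked list, ran from -4.54 in unc-33 to 4.88 in cha-1. All measured genes of the arm ran from -6.84 to 8.99. The cholinergic locus, in which cha-1 (choline acetyltransferase) and unc-17 (vesicular acetylcholine transporter) overlap and share sites, was enriched. In cha-1 the levels were 487, 244 and 262 CPM in Dam::EMR-1 and 5.93, 18.4 and 10.5 in GFP::Dam, with a ratio of 4.88 ± 0.95 (limma, adjusted p = 8.4e-05), and unc-17 stood at 4.48 ± 1.00. The kinesin gene osm-3 of sensory cilia stood at 1.88 ± 1.02 and just missed the threshold (limma, adjusted p = 0.052), and passed it under total-read scaling (0.031).

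Among developmental genes, the GATA factor gene egl-18 was depleted at -1.90 ± 0.38 (limma, adjusted p = 0.024), a call that was lost without replicate 1, 2 or 3 (0.083, 0.088 and 0.053) and in edgeR (0.16). Its neighbour elt-6, another GATA factor gene, lay at 0.04 ± 1.21 with replicates on both sides of 0.

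No call was made for egl-4, the cGMP-dependent kinase gene (-0.39 ± 0.77), the ETS factor gene lin-1 (0.81 ± 0.76), the Hairy-related gene lin-22 (1.03 ± 1.34) or ced-2, an adaptor gene of cell corpse engulfment (1.12 ± 1.92). In lin-1 the levels were 301, 237 and 169 CPM in Dam::EMR-1 and 137, 147 and 204 in GFP::Dam. The groups overlap, and the sign of lin-1, egl-4 and elt-6 changed with the fit or with the replicates used.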

How the data were processed

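DamID libraries were made per the labels' protocols from 200 ng of genomic DNA with 24 PCR cycles. The authors deposited tables of GATC sites and of bins of 2, 10 and 100 kb, which give, per the file headers, a log2 ratio for each of 3 replicate numbers, and the raw read count summed over the libraries. The authors' adjusted p-value is used from the deposited 10-kb table, the table that has one. The submitters' processing notes list ce11 and DESeq2 without saying how the tool was used. No source used here gives the aligner or its handling of repeats. All per-sample columns were used, leaving 0.

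The values show that a deposited log2 ratio compares reads + 1 between 2 libraries and subtracts a constant per column. This allowed whole reads per library to be solved for (tolerance 4e-12), with a unique solution for 90.2% of the sites and, by growing bin size, for 90.1, 96.3 and 99.9% of the bins. Libraries held 15719682 to 22407988 reads, and the median 10-kb bin of the arm 4637, against 6256 over the genome. PCR reads are not independent molecules.

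The main test was limma 3.58.1 (R 4.3.3), intercept only, on the 3 deposited ratios, with a variance trend on the log2 read sum, robust, two-sided, with Benjamini-Hochberg adjustment over each whole table and a minimum of 60 reads. Region levels, as mean log2(CPM + 1) over 10-kb bins with recovered reads, were compared by exact permutation tests (scipy 1.17.1). Alternatives used edgeR 4.0.16 and DESeq2 1.42.0 on recovered reads, other pseudocounts, scalings, minima, thresholds and arm ends, and each replicate left out.

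Genes came from a RefSeq table of WBcel235. Genes named are the 12 highest and 12 lowest called genes with a gene name, more reads than the median gene (2040) and 3 replicates in one direction; up to 2 per direction of each family with at least 5 measured genes; members of a hand-picked list, of which 1 is not reported here; and genes of the longest runs, with ties. Others were named after their values were seen. The members, lists and rules were chosen with earlier results of these data known. No sequence table was used.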

Additional observations from a re-analysis of the deposited data

How the results depend on the processing

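The alternatives kept the direction of the mean ratio and of the differences from the centre, the right arm and the mean of the other left arms, and the excess of enriched over depleted bins and genes. They were not run for single left arms, read shares, windows or 100-kb bins. Genome-wide shares under them are not given, so the counts below do not show how the arm then compared with the genome. At an adjusted p of 0.01, limma called 83 enriched and 28 depleted 10-kb bins, 58 and 24 2-kb bins, and 50 depleted genes. With the replicate block, edgeR called 125 enriched and 69 depleted 2-kb bins and 114 enriched and 41 depleted genes, and without it 49 depleted genes. Leaving out 1 replicate gave 93 to 111 enriched and 32 to 43 depleted 10-kb bins, 112 to 140 enriched and 51 to 57 depleted 2-kb bins, and 183 to 192 enriched and 61 to 71 depleted genes. It gave mean ratios of 0.65 to 1.00, and differences of 1.12 to 1.50 from the centre, -1.39 to -1.12 from the right arm and -0.51 to -0.36 from the other left arms. The mean ratio of the arm was 1.23 as a median over bins, 1.23 with the arm ended at 3000000 and 1.46 under total-read scaling. With the arm ended there, the difference was -0.87 from the right arm and -0.20 from the other left arms. Total-read scaling adds 0.60 on average to the ratio of every 10-kb bin of the genome. The stretches left out beyond 3000000 averaged 0.20 and -1.03. No other source of these shifts was tested.

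Of the 45 genes chosen by rule, 38 were called, and 10 of these lost the call in at least 1 alternative. Signs turned only for genes without a call. For elt-6 the value was -0.15 with the replicate block, and -0.66 to 0.41 with 1 replicate left out. For egl-4 it was 0.059 in edgeR without the block, and -0.67 to 0.053 with 1 replicate left out. For lin-1 it was -0.20 with the block and -0.17 without it. Calls were lost in edgeR for 8 genes with the replicate block and for 10 without it. Calls kept with the block and lost without it included perm-2 (7.79 with the block, 4.18 without) and ssna-1 (-8.93 and -5.90). Deviations of libraries with the same number correlated at -0.001, 0.012 and 0.013, and not every library correlated best with its own number. Those of libraries with different numbers correlated at -0.021 to 0.009. With all values near 0 and 3 libraries per group, this cannot show whether the numbers pair the libraries. Bins with few reads in 1 group limit the precision of the largest ratios.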
